A study of Rattus norvegicus with 6 samples.

Results

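The report follows 10 cell cycle and proliferation genes in liver RNA, chosen by gene symbol out of the 32930 gene rows of the deposited table. The genes were Ccnd1, Mcm2, Pcna, Ccna2, Ccnb1, Cdk1, Top2a, Mki67, Cdkn1a and Gadd45g, and each symbol matched 1 row. The livers came from 3 animals fed a high-fat diet with 0.5% CMC-Na as vehicle (HFD group) and from 3 animals fed the same diet and treated with HTG (HTG group), with 12 weeks of intervention by the labels. HTG is the Huazhuo Tiaozhi granule, a herbal formula, and the treatment tag of those 3 samples spells it HCG. All 6 animals thus shared the diet, and no animal on a normal diet is analysed here. The labels name rats, the paper's RNA sequencing methods name C57BL/6 J mice, and the gene rows carry mouse Ensembl identifiers, so values were read as mouse genes. Male Wistar rats are described in the paper, but age is not given, nor is sex if the livers came from the mice. In the paper's rat experiment the drugs were also given in 0.5% CMC-Na, and only in the later part of the 12 weeks of diet. Nothing in the labels says more about how the animals of a group relate, so the p-values measure the spread between these samples.

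Cells divide by passing from G1 through DNA replication in S phase and then G2 to mitosis, driven by cyclins that switch on cyclin-dependent kinases (CDKs). D-type cyclins open G1, the MCM helicase and the PCNA clamp carry out replication, and cyclin A, cyclin B and CDK1 lead into mitosis, while p21 (Cdkn1a) and the GADD45 proteins restrain the cycle under stress. Most hepatocytes of an adult liver rest outside the cycle, and cyclin D1 and p21 are also made by resting hepatocytes.

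Per transcript length, the stress gene Gadd45g was the most abundant member, with a median of 36.4 FPKM (fragments scaled by transcript length and library size) over the 6 libraries and a range of 9.88 to 104. Pcna followed with 9.54 (7.57 to 14.8), Ccnd1 with 4.49 (2.41 to 12.8) and Cdkn1a with 1.83 (0.37 to 3.58). The other 6 genes had medians under 1 FPKM, from 0.655 for Ccna2, 0.645 for Mcm2 and 0.625 for Mki67 to 0.3 for Cdk1, 0.285 for Top2a and 0.155 for Ccnb1. Only Pcna over Ccnd1 and Mki67 over Cdk1 kept their order in all 6 libraries among neighbours of this ranking. The hepatocyte marker Alb, by comparison, had between 20515 and 31602 FPKM, and all 5 hepatocyte markers examined were abundant in every library, although 3 of them differed between the groups at an unadjusted p under 0.05.

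The deposited counts summed to between 50648778 and 90563477 per library. Among low counts, 4 (6450 times) and 8 (3333 times) were more frequent than 3 (2549), 5 (1757), 7 (1521) and 9 (1170). Counts of 1 (5104 times) and 2 (4229 times) were frequent too. Reading 1 sequenced fragment as 4 counts is therefore an assumption that the lowest counts follow only in part. The limit that an empty gene allows was then 3 fragments, or 12 counts, per library, for counting error only. TMM scaling in edgeR put the libraries on one scale, given as CPM (counts divided by the scaled library total). The groups were then tested with edgeR's quasi-likelihood method in 18455 genes, with p-values adjusted over all of them. Every member passed the expression filter. A count in bulk liver cannot tell fewer cells of a type from less RNA per cell.

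At an adjusted p under 0.05, 0 of the 10 members differed between the groups in edgeR's quasi-likelihood test, as did 0.0108% of all genes tested. At an unadjusted p under 0.05 in the same test, 3 members (Ccnb1, Pcna and Mcm2) were lower and 0 were higher in the HTG group, where 12.4% of all genes tested were lower and 12.3% were higher. DESeq2 put 2 of them, Ccnb1 and Mcm2, under an adjusted p of 0.05, as it did 10.9% of the genes to which it gave an adjusted p. The fitted log2 fold change was negative in 9 members and positive in Gadd45g. The library values did not overlap between the groups in the same 3 genes, all with HTG below HFD, which happened in 15.5% of all genes tested. HFD library 3 held the highest CPM of 7 of the 10 members, against 19.1% of all genes tested.

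**Figure D1:**
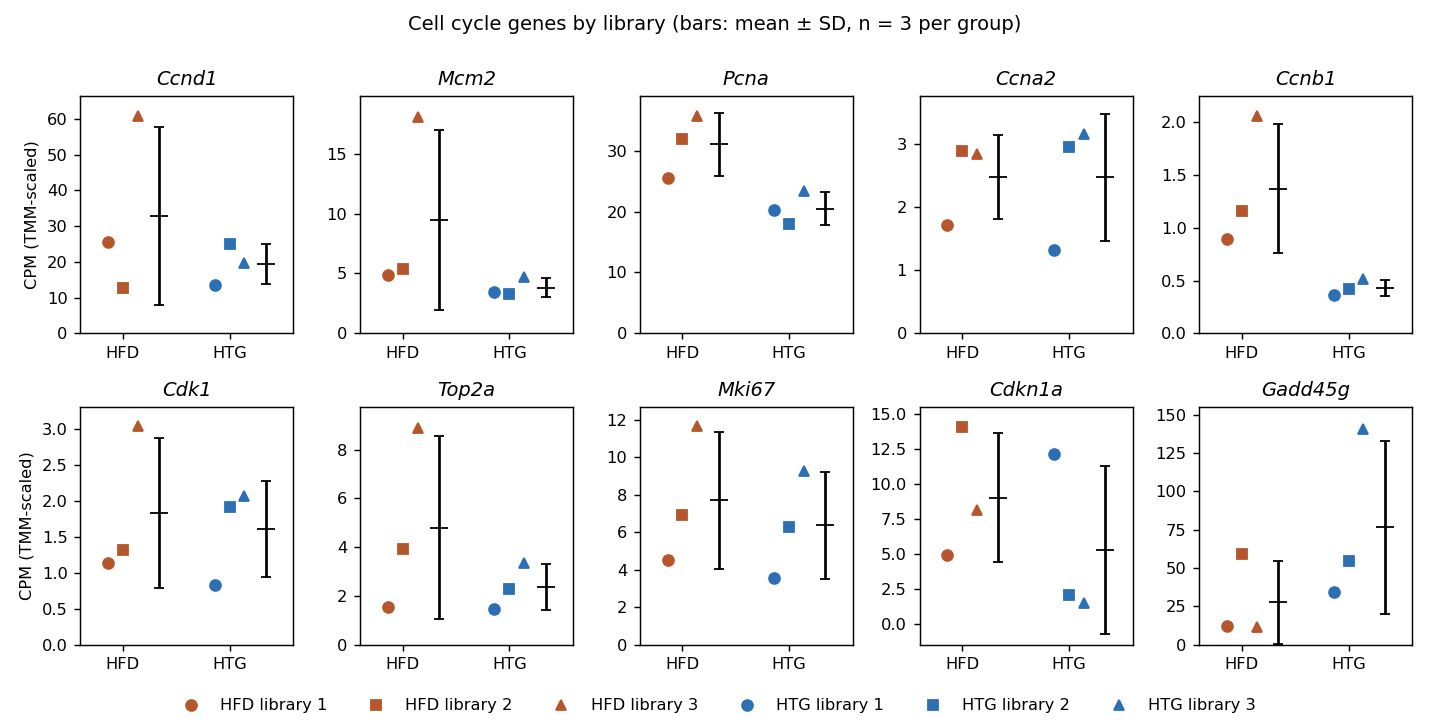
CPM of each member in each library (vertical axes start at 0, except for Cdkn1a, where an error bar passes below 0), with the mean and SD of each group of 3. HTG lay below HFD without overlap in Mcm2, Pcna and Ccnb1, and HFD library 3 (brown triangles) was the highest point in 7 of the 10 genes.

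Ccnd1 (ENSMUSG00000070348, chromosome 7, 144483668 to 144493662, minus strand; coordinates as the table lists them, with no mouse build named) encodes cyclin D1, the partner of CDK4 and CDK6 in G1. Its counts were 1734, 840 and 4363 in the HFD group (libraries 1 to 3 in order, as for all genes here) and 1055, 2438 and 920 in the HTG group. In FPKM the values were 5.42, 2.41 and 12.8 in the HFD group and 2.68, 5.35 and 3.62 in the HTG group. HFD library 3 stood above all others and HFD library 2 was the lowest, so the HTG values lay inside the HFD range. The fitted log2 difference between HTG and HFD was -0.77 (SE 0.50, adjusted p = 0.386 in edgeR's quasi-likelihood test) with all libraries and 0.02 without HFD library 3. An opposite-strand gene, LTO1, overlaps Ccnd1, and strand use in counting is not given in the sources used here. Among the other D cyclins, Ccnd2 was lower without overlap, at 6.31 ± 0.672 CPM in the HFD group and 3.96 ± 0.56 in the HTG group (SD, n = 3; unadjusted p = 0.0186, adjusted p = 0.124 in edgeR's test). The unadjusted p of Ccnd2 was 0.0539 without HFD library 3 and 0.0672 without HTG library 3 in the same edgeR test. Ccnd3 had 39.8 ± 3.65 and 37.5 ± 2.6 CPM (SD, n = 3 per group), with overlapping groups.

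Mcm2 (ENSMUSG00000002870, chromosome 6, 88860456 to 88875762, minus strand) encodes a subunit of the helicase that opens DNA for replication. It had 331, 360 and 1300 counts for HFD and 268, 317 and 222 for HTG. The FPKM values were 0.7, 0.7 and 2.58 against 0.46, 0.47 and 0.59. Every HTG library was lower than every HFD library on the FPKM and CPM scales, although HFD libraries 1 and 2 were much closer to the HTG group than to HFD library 3, which had 3.53 times their mean CPM. On the log2 scale HTG minus HFD came to -1.31 (SE 0.50, unadjusted p = 0.0295, adjusted p = 0.154 in edgeR's quasi-likelihood test). Without HFD library 3 it was -0.44 with an unadjusted p of 0.166 in edgeR, and the unadjusted p was also over 0.05 without HTG library 1 (0.0736) and without HTG library 2 (0.0852). The other helicase subunits were also highest in HFD library 3. Mcm5 had 115, 201 and 1131 counts for HFD and 132, 199 and 129 for HTG. Its log2 fold change was -1.66 with all libraries (unadjusted p = 0.0548 in edgeR) and -0.13 without HFD library 3. Mcm3, Mcm4, Mcm6 and Mcm7 had log2 fold changes of -0.72, -1.12, -0.96 and -0.31, all with overlapping groups, and without HFD library 3 these were 0.25, -0.02, -0.14 and -0.10.

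Pcna (ENSMUSG00000027342, chromosome 2, 132091082 to 132095234, minus strand) encodes the sliding clamp that holds DNA polymerases on the template and also serves DNA repair. Its counts were 1737, 2130 and 2569 for HFD and 1572, 1758 and 1091 for HTG. The corresponding FPKM were 10.7, 12.0 and 14.8 against 7.83, 7.57 and 8.43, so the groups did not overlap and no single library stood far from its group. Mean CPM were 31.1 ± 5.19 and 20.5 ± 2.67 (SD, n = 3 per group). The fit put HTG minus HFD at a log2 value of -0.60 (SE 0.19, unadjusted p = 0.0113, adjusted p = 0.102 in edgeR's quasi-likelihood test), and it stayed between -0.73 and -0.49 when 1 library was left out, each time with an unadjusted p under 0.05. Of the 10 members it had the smallest relative spread in each group, with SDs of 16.7% and 13.0% of the mean CPM. A pseudogene named Pcna-ps2 carried 16 to 44 counts per library.

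Ccna2 (ENSMUSG00000027715, chromosome 3, 36619014 to 36626299, minus strand) encodes cyclin A2 of S phase and G2. It had 117, 193 and 205 counts for HFD and 103, 289 and 148 for HTG, or 0.42, 0.64 and 0.69 FPKM against 0.3, 0.73 and 0.67. In each group library 1 was the lowest, and the ranges almost coincided. HTG minus HFD was, in log2 units, -0.01 (SE 0.40, adjusted p = 0.993 in edgeR's quasi-likelihood test), and its sign changed with the scaling and with the library left out. The gene overlaps Exosc9 on the opposite strand.

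Ccnb1 (ENSMUSG00000041431, chromosome 13, 100915158 to 100923078, minus strand), which encodes cyclin B1, the mitotic partner of CDK1, had the most negative fold change of the members. Its counts were 61, 77 and 148 for HFD and 28, 41 and 24 for HTG, about 15 to 37 fragments against 6 to 10. In FPKM these were 0.21, 0.24 and 0.48 against 0.08, 0.1 and 0.09. All HTG libraries were below all HFD libraries, and all were above the limit of an empty gene. The fitted log2 difference between HTG and HFD was -1.67 (SE 0.47, unadjusted p = 0.00663, adjusted p = 0.0839 in edgeR's quasi-likelihood test). Leaving out HFD library 3 gave -1.26 with an unadjusted p of 0.0358 in edgeR, and the other 5 fits without 1 library gave values between -1.91 and -1.60. The pseudogene Ccnb1-ps carried 0 to 16 counts per library, and how reads were shared between them is not given in the sources used here.

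Cdk1 (ENSMUSG00000019942, chromosome 10, 69170976 to 69188768, minus strand) encodes the kinase that cyclin B1 activates. It had 77, 88 and 218 counts for HFD and 65, 187 and 97 for HTG. The FPKM were 0.23, 0.24 and 0.61 against 0.16, 0.39 and 0.36. The groups overlapped, with HTG libraries 2 and 3 above HFD libraries 1 and 2. On the log2 scale HTG minus HFD came to -0.19 (SE 0.51, adjusted p = 0.849 in edgeR's quasi-likelihood test) and 0.38 without HFD library 3.

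Top2a (ENSMUSG00000020914, chromosome 11, 98883769 to 98915015, minus strand) encodes the topoisomerase that untangles chromosomes before they separate. Counts of 106, 262 and 639 for HFD stood against 112, 224 and 157 for HTG, or 0.17, 0.39 and 0.98 FPKM against 0.15, 0.25 and 0.32. HFD library 1 was close to HTG library 1, and HFD library 3 was the highest. The fit put HTG minus HFD at a log2 value of -1.03 (SE 0.59, adjusted p = 0.325 in edgeR's quasi-likelihood test) and -0.23 without HFD library 3. Without HFD library 1 it was -1.45, with an unadjusted p of 0.0178 in edgeR.

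Mki67 (ENSMUSG00000031004, chromosome 7, 135291513 to 135318090, minus strand) encodes Ki-67, the antigen used to stain cycling cells. It had 307, 460 and 840 counts for HFD and 278, 615 and 434 for HTG. In FPKM it had 0.45, 0.62 and 1.15 against 0.33, 0.63 and 0.8. The groups overlapped over most of their range, with library 1 the lowest and library 3 the highest CPM in each. Mean CPM were 7.7 ± 3.66 and 6.37 ± 2.85 (SD, n = 3 per group). HTG minus HFD was, in log2 units, -0.28 (SE 0.43, adjusted p = 0.726 in edgeR's quasi-likelihood test) and 0.15 without HFD library 3.

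Across the 6 libraries some members had similar patterns. The log2 CPM of Mki67 correlated with that of Cdk1 (Pearson's r = 0.94, Spearman's rho = 0.94) and of Top2a (r = 0.93, rho = 0.94). With the mean of each group removed, these r were 0.95 and 0.94. For Ccnb1, r was 0.50 to Cdk1, 0.59 to Mki67, 0.77 to Top2a and 0.34 to Ccna2 (rho = 0.54, 0.71, 0.83 and 0.09). With the mean of each group removed, these r rose to 0.89, 0.91, 0.97 and 0.63. Over the 28 pairs of the 8 members other than Cdkn1a and Gadd45g, r lay between 0.30 and 0.95 and rho between -0.14 and 1. These are descriptions over 6 libraries that share their depth and scaling within each library, and the pairs named were picked after their values were seen.

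**Figure D2:**
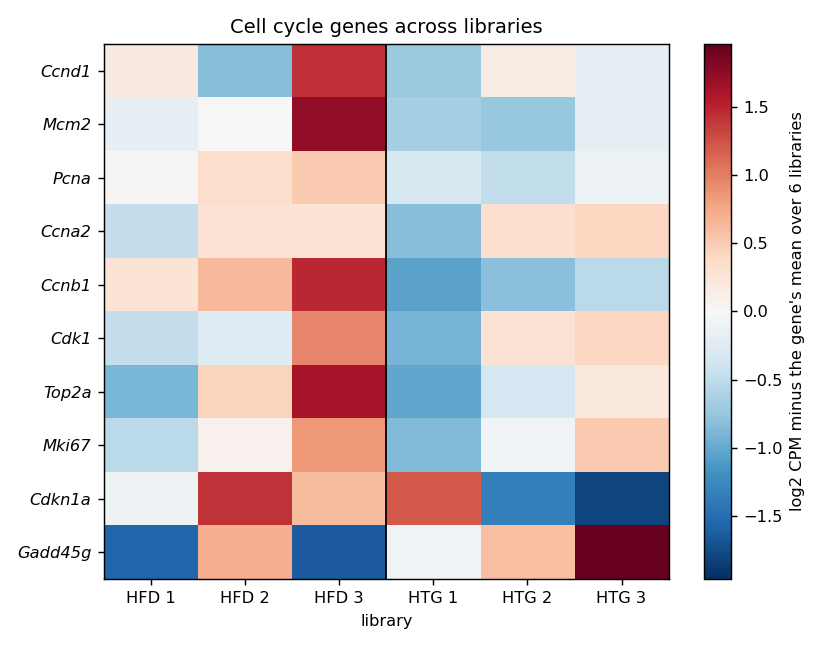
Log2 CPM of each member in each library minus the mean of the gene over the 6 libraries, with red above and blue below that mean. HFD library 3 is the highest library in 7 genes, whereas Ccna2 and Gadd45g peaked in HTG library 3 and Cdkn1a in HFD library 2.

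Promoters of 4 mitotic members are shown because Cdk1, Top2a and Mki67 had similar patterns and Ccnb1 separated the groups. No window was available for Ccna2. They are RefSeq sequences of the rat genome GRCr8, the species of the labels, and so not the mouse rows that were counted. Each holds 250 bases before and 50 bases after the gene's start and is printed in the direction of transcription. Capitals mark the letters CCAAT, the box bound by NF-Y, and TTTGAA, the cell cycle homology region (CHR) of mitotic genes, on either strand, so that ATTGG and TTCAAA are capitalised too. The Ccnb1 window lies at chr2:33655176-33655475 (minus strand), that of Cdk1 at chr20:19265043-19265342 (plus strand), that of Top2a at chr10:84473044-84473343 (minus strand) and that of Mki67 at chr1:199952544-199952843 (minus strand).
Ccnb1: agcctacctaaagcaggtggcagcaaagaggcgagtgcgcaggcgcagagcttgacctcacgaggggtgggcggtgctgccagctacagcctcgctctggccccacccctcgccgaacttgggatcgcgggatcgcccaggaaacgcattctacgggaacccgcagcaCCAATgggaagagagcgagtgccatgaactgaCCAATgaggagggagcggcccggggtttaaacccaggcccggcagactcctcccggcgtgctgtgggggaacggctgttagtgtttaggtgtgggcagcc
Cdk1: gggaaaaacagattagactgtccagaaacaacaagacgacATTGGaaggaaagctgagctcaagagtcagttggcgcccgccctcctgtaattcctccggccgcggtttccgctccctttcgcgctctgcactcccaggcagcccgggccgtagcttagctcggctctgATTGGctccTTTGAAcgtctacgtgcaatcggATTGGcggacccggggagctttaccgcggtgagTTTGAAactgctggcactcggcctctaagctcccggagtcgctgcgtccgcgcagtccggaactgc
Top2a: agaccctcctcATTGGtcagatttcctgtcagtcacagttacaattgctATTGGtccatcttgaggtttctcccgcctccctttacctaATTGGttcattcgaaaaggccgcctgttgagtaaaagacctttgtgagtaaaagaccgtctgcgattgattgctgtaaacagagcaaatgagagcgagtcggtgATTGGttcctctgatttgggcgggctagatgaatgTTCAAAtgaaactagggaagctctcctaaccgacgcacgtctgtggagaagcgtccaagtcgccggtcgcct
Mki67: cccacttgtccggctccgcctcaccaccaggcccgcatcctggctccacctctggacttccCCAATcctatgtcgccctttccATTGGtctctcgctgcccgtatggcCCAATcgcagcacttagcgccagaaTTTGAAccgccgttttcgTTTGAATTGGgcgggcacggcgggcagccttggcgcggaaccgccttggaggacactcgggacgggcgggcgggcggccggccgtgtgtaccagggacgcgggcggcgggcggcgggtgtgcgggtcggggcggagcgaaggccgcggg
All 4 windows hold CCAAT at least once, with 2 matches in Ccnb1, 3 in Cdk1 and 4 each in Top2a and Mki67. TTTGAA was found 2 times in Cdk1 and in Mki67, 1 time in Top2a and 0 times in Ccnb1, and in Mki67 one TTTGAA overlaps an ATTGG. Over all 33469 rat promoter windows of this length, 37.5% hold CCAAT and 18.3% hold TTTGAA on either strand, and 7.41% hold both. Windows were available for 8 of the 10 members, and not for Ccna2 or Ccnd1. Of the other 4, Pcna and Gadd45g had CCAAT alone, Mcm2 had TTTGAA alone, and Cdkn1a had neither. A match of letters is a description of the window and shows no binding. Other spellings of either element were not searched for, so a window without a match may still hold one.

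Cdkn1a (ENSMUSG00000023067, chromosome 17, 29309950 to 29319701, plus strand) encodes the CDK inhibitor p21, a target of p53. Its counts were 335, 938 and 584 for HFD and 950, 204 and 71 for HTG. The FPKM were 1.39, 3.58 and 2.26 against 3.2, 0.59 and 0.37. HTG library 1 was high, with 6.77 times the mean CPM of the other HTG libraries, and lay inside the HFD range, whereas HTG libraries 2 and 3 were below every HFD library. The fitted log2 difference between HTG and HFD was -0.77 (SE 0.75, adjusted p = 0.557 in edgeR's quasi-likelihood test). Without HTG library 1 it was -2.35 (unadjusted p = 0.00179, adjusted p = 0.0507 in edgeR). Among the other CDK inhibitors, Cdkn1b (p27) had 19.8 ± 2.37 CPM in the HFD group and 25.2 ± 4.44 in the HTG group, and Cdkn1c (p57) had 1.18 ± 0.893 and 1.56 ± 0.899 (SD, n = 3 per group), both with overlapping groups. Cdkn2b (p15) had 27, 12 and 40 counts for HFD and 0, 4 and 3 for HTG. All HTG libraries of Cdkn2b were under the limit of an empty gene, and HFD library 2, with 12 counts, was at it. With the mean HFD CPM set against the mean limit of the HTG libraries, Cdkn2b was at least 2.13-fold lower (unadjusted p = 0.0127, adjusted p = 0.106 in edgeR's quasi-likelihood test). This is a bound on the group means and not on each library. Without HFD library 3 its unadjusted p was 0.0571 in edgeR.

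Gadd45g (ENSMUSG00000021453, chromosome 13, 52000714 to 52002504, plus strand) encodes a small stress protein that binds p21 and PCNA and can inhibit the kinase of CDK1 and cyclin B1. It had 836, 3928 and 839 counts for HFD and 2680, 5329 and 6588 for HTG. In FPKM these were 10.5, 45.4 and 9.88 against 27.4, 47.0 and 104. Each HTG library was above HFD libraries 1 and 3, and HFD library 2, at 58.9 CPM, was above HTG libraries 1 (34.4) and 2 (54.5), so the groups overlapped. In FPKM HFD library 2 was above HTG library 1 alone. On the log2 scale HTG minus HFD came to 1.47 (SE 0.72, unadjusted p = 0.0748, adjusted p = 0.251 in edgeR's quasi-likelihood test). Leaving out HFD library 2 gave 2.67 (unadjusted p = 0.00221 in edgeR), and leaving out HTG library 3 gave 0.71 (unadjusted p = 0.325). The relative Gadd45a had 5.16 ± 2.07 CPM in the HFD group and 13.2 ± 10.2 in the HTG group (SD, n = 3; unadjusted p = 0.0367, adjusted p = 0.172 in edgeR). HTG library 2 carried most of this, with 2402 counts against 396 and 463 in the other HTG libraries, and without it the log2 fold change of Gadd45a went from 1.35 to 0.53. The unadjusted p of Gadd45a was also over 0.05 without HFD library 1 (0.0976) and without HFD library 2 (0.106) in edgeR. Gadd45b had 327, 1255 and 315 counts for HFD and 721, 451 and 174 for HTG, and HFD library 2 was the highest of its group, as for Gadd45g. Its log2 fold change was -0.67 with all libraries and 0.35 without HFD library 2.

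**Figure D3:**
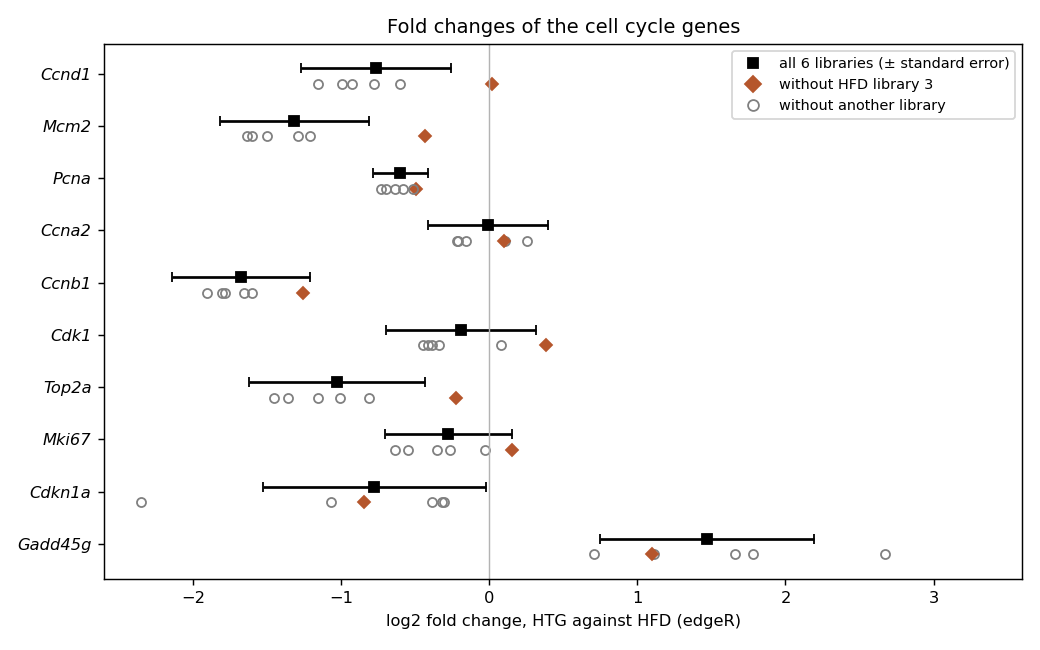
Log2 fold change of HTG against HFD for each member (squares, with the standard error) and the values when HFD library 3 (diamonds) or any other library (circles) is left out, by edgeR. Pcna stayed between -0.73 and -0.49 and Ccnb1 between -1.91 and -1.26, whereas leaving out HFD library 3 moved Ccnd1, Ccna2, Cdk1 and Mki67 to the other side of 0.

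Wider lists of cell cycle genes were read beside the members, by phase. Of 45 genes of G2 and mitosis, all tested, 41 had a negative fitted value, 8 were lower and 0 were higher in the HTG group at an unadjusted p under 0.05, and the median log2 fold change was -0.60. Over all genes tested, 48.4% had a negative fitted value, 12.4% were lower, 12.3% were higher and the median was 0.03. The 17.8% of mitotic genes that were lower was near that background, whereas the share with a negative fitted value was 91.1%. The 3 with the smallest p were Ccnb1, Anln, which encodes the contractile ring protein anillin, with 2 ± 0.702 CPM in the HFD group and 0.572 ± 0.346 in the HTG group (SD, n = 3; adjusted p = 0.0906 in edgeR), and Stmn1, which encodes a protein that destabilises microtubules, with 9.88 ± 2.44 and 5.8 ± 1.26 (SD, n = 3; adjusted p = 0.122 in edgeR). Stmn1 passed an unadjusted p of 0.05 in 3 of the 6 fits without 1 library, and Anln in all 6. Of 38 genes of S-phase replication, 37 were tested. 26 had a negative fitted value (70.3%, against 48.4% of all genes tested), 9 were lower (24.3%, against 12.4%) and 0 were higher (against 12.3%), with a median of -0.60. They were led by Cdt1, which loads the MCM helicase, with 6.09 ± 1.18 CPM in the HFD group and 2.67 ± 0.153 in the HTG group (SD, n = 3; unadjusted p = 0.0012, adjusted p = 0.0585 in edgeR, and adjusted p = 0.00214 in DESeq2). Rrm2, a subunit of ribonucleotide reductase, had 7.28 ± 5.93 and 1.93 ± 0.353 (CPM, SD, n = 3 per group). The log2 fold change of Rrm2 was -1.92 with all libraries and -1.01 without HFD library 3. The unadjusted p of Cdt1 and of Rrm2 was under 0.05 in each fit without 1 library. The smallest adjusted p in edgeR was 0.0839 among the mitotic genes and 0.0585 among the replication genes. A negative fitted value was as frequent in the lists of G1 and E2F-RB genes (72.7%) and p53 targets (70.8%), given below, as among the replication genes (70.3%).

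HFD library 3 held the highest CPM of 29 of the 45 mitotic genes (64.4%) and of 23 of the 37 replication genes (62.2%), against 19.1% of all genes tested. Without it, 28 of the 45 mitotic genes had a negative fitted value, 3 were lower at an unadjusted p under 0.05 and the median was -0.23. For the replication genes the numbers without it were 22 of 37, 6 and -0.13. In that fit, 47.1% of all genes had a negative fitted value, against 62.2% of the mitotic and 59.5% of the replication genes. At this threshold 10.2% of all genes were lower, so the 6.67% of mitotic genes that were lower did not exceed the background. The share of replication genes that were lower was 16.2%. Leaving out HFD library 2 or HTG library 2 left 4 and 2 mitotic genes lower, and leaving out HFD library 1 left 15 replication genes lower. Over the whole table, 1881, 1545 and 2188 genes were lower in these 3 fits, in that order, against 2288 with all libraries.

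The 22 genes of G1 and the E2F-RB switch had a median of -0.12, with 3 lower (13.6%) and 1 higher (4.55%) at an unadjusted p under 0.05. A negative fitted value was found in 16 of the 22 (72.7%, against 48.4% of all genes tested). The share lower at that threshold was close to the 12.4% of all genes tested, so that count is no result about the list. The genes below are given as values. E2f1, an activator of S-phase genes, had 4.1 ± 1.48 CPM in the HFD group and 1.76 ± 0.163 in the HTG group (SD, n = 3; unadjusted p = 0.00624, adjusted p = 0.083 in edgeR), without overlap and with an unadjusted p under 0.05 in each fit without 1 library. The others lower were Ccnd2 and Ccne1, which encodes cyclin E1, with 3.21 ± 0.638 and 1.89 ± 0.546 CPM (SD, n = 3 per group) and an unadjusted p under 0.05 in 2 of the 6 fits without 1 library. E2f7, an E2F repressor, was higher, with 25, 16 and 49 counts for HFD and 231, 66 and 62 for HTG (unadjusted p = 0.0161 in edgeR). Without HTG library 1 its log2 fold change went from 1.94 to 1.16 (unadjusted p = 0.113 in edgeR), and its unadjusted p was just over 0.05 without HFD library 1 (0.0508) or HFD library 2 (0.0505).

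The 7 CDK inhibitors included 6 that were tested, with a median of -0.07. At an unadjusted p under 0.05, 1 was lower (Cdkn2b, 16.7%, against 12.4% of all genes tested) and 0 were higher (against 12.3%). Of the 24 p53 target genes, 4 were higher (16.7%) and 2 were lower (8.33%) at an unadjusted p under 0.05, near the 12.3% and 12.4% of all genes tested, with a median of -0.17. A negative fitted value was found in 17 of the 24 (70.8%, against 48.4% of all genes tested). The 4 higher became 2 with DESeq2, in each limma fit, with the replicate block, and without HFD library 3 or any 1 HTG library, and the 2 lower became 4 without HFD library 3. Ddb2, a sensor of damaged DNA, had 6.03 ± 1.37 CPM in the HFD group and 11.1 ± 1.55 in the HTG group, Bax, a driver of apoptosis, had 20.5 ± 4.13 and 31.1 ± 3.66, and Polk, a lesion-bypass polymerase, had 5.39 ± 0.623 and 7.88 ± 1.18 (SD, n = 3 per group). Xpc, of nucleotide excision repair, was lower, with 14.5 ± 2.51 and 8.93 ± 1.44 CPM, as was Ei24, with 159 ± 41.6 and 87.2 ± 22.9 (SD, n = 3 per group). Adjusted p-values of these 5 genes lay between 0.0805 and 0.17 in edgeR's quasi-likelihood test. Polk passed an unadjusted p of 0.05 in 1 of the 6 fits without 1 library, Bax in 5, and Ddb2, Xpc and Ei24 in all 6. The GADD45 list held Gadd45a, Gadd45b, Gadd45g and Gadd45gip1. Its 4 genes had a median of 1.16, with 2 higher (50%, against 12.3% of all genes tested) and 0 lower (against 12.4%). The 2 higher were Gadd45a and Gadd45gip1, so of the GADD45 genes themselves Gadd45a alone passed, and Gadd45b had a negative fitted value. The 2 higher became 1 with the replicate block, in limma without the filter, and without HFD library 1 or HTG library 2. They became 3 in edgeR without an expression filter and without HTG library 1. Gadd45gip1, whose product binds GADD45 proteins and is a part of the mitochondrial ribosome, had 29.8 ± 1.89 CPM in the HFD group and 57.9 ± 7.27 in the HTG group (SD, n = 3; unadjusted p = 0.00037, adjusted p = 0.0542 in edgeR), without overlap.

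**Figure D4:**
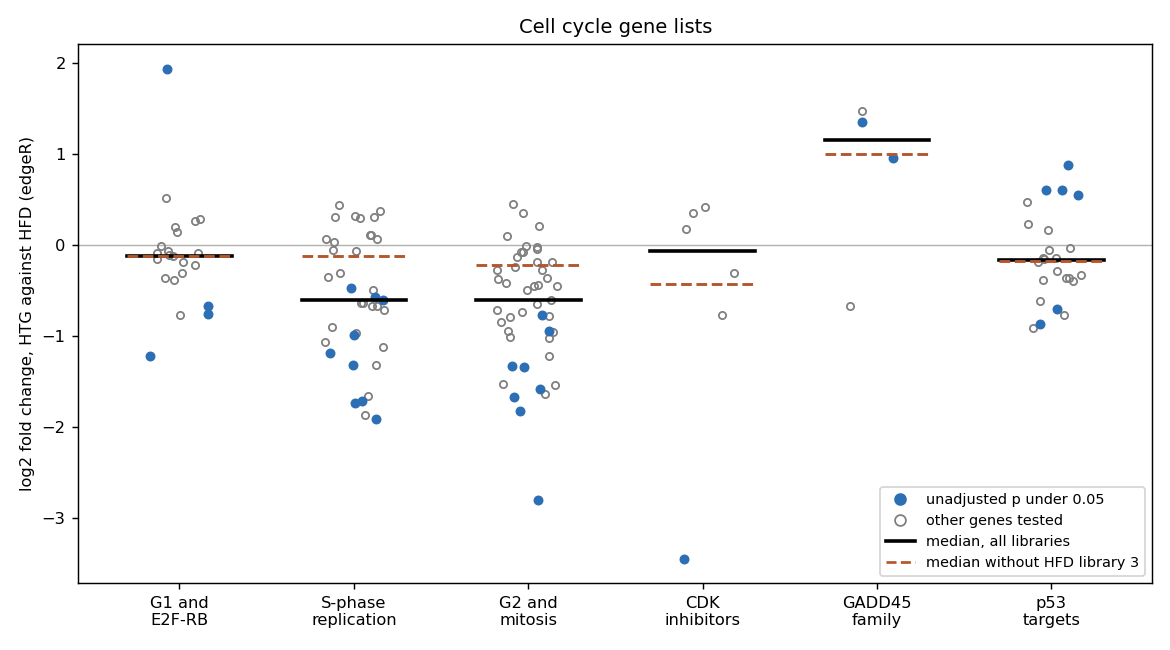
Log2 fold change of HTG against HFD (edgeR) for each tested gene of 6 lists, with filled points at an unadjusted p under 0.05, the median of each list (solid line) and its median without HFD library 3 (dashed line). The medians of the replication and mitotic lists lie at -0.60 with all libraries and at -0.13 and -0.23 without that library; the lowest point among the CDK inhibitors, Cdkn2b, had at most 4 counts in any HTG library.

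Markers of other liver cell types, which can also divide, were measured in the same libraries. Summed macrophage and Kupffer cell markers lay between 285 and 635 CPM in the HFD group and between 275 and 475 in the HTG group. All 7 of these markers had a negative fitted value, as did 48.4% of all genes tested. Of the 7, 1, Adgre1, was lower at an unadjusted p under 0.05 (0.000334 in edgeR), 14.3% of the list against 12.4% of all genes. HFD library 3 was the highest library for 5 of 7 (71.4%, against 19.1% of all genes). Stellate cell markers summed to between 146 and 210 CPM in the HFD group and between 125 and 179 in the HTG group. Of these, 1 of 6 was lower (16.7%, near the 12.4% of all genes) and 4 of 6 were highest in HFD library 3 (66.7%, against 19.1%). Lymphocyte markers summed to between 22.9 and 30.9 CPM against 26.1 to 33.6, with 0 of the 6 tested past that threshold, and Ms4a1 was at 0 in HFD library 3 and Cd79a at 0 in HTG library 3. Sinusoidal endothelial markers (58.2 to 142 against 103 to 155 CPM) and neutrophil markers (35.6 to 63.8 against 26.6 to 73.2) had 0 genes past it. Cholangiocyte markers (85.3 to 106 against 59.5 to 131) had 1 higher and 1 lower, each 20% of the list. Red cell markers (234 to 423 against 258 to 485) had 1 lower, 16.7% of the list. Over all genes tested, 12.3% were higher and 12.4% lower. Of the 5 hepatocyte markers, which summed to between 74270 and 92245 CPM in the HFD group and between 74840 and 80072 in the HTG group, Cps1 (log2 fold change -1.62, unadjusted p = 0.000608 in edgeR) and Tat (-1.32, unadjusted p = 0.00654) were lower and Apoa1 (1.24, unadjusted p = 0.000939) was higher, each also in all 6 fits without 1 library, while Alb and Ttr did not pass. The part of these cell types in the values of the cell cycle genes was not tested.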

How the data were processed

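Liver RNA of 3 HFD and 3 HTG animals was analysed, grouped by the sample titles. The authors deposited, per gene and library, whole-number estimated counts without scaling for depth, and FPKM values scaled by transcript length and library. The submitters' processing notes name HISAT2, SAMtools, StringTie and the rat build mRatBN7.2, whereas the rows are mouse Ensembl genes. Roles, versions, filters and strand use are not given in the sources used here. The labels name a NEBNext Ultra kit and the paper describes dUTP strand marking.

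Estimated counts were tested as deposited with edgeR 4.0.16 (TMM, filterByExpr, glmQLFit, glmQLFTest) under R 4.3.3, modelling diet with or without HTG alone, and Benjamini-Hochberg adjustment. With 3 against 3 libraries, an exact two-sided permutation test cannot go below p = 0.1. Where a symbol had several rows, the row with the most counts was used. No library repeated another of its own group, and pairs across the groups were not checked for this. The members, lists and tests were chosen with earlier results of these data known. Named genes were the 10 members, their closest relatives, and up to 3 genes per list and direction with the smallest p under 0.05. A gene that this rule names is not reported here. The script was tested on simulated counts. Alternatives were fits with DESeq2 1.42.0, without the filter, or with a minimum of 10 counts per library; scaling by DESeq2 size factors or upper quartiles; blocking on replicate number; leaving out each library; dividing counts by 4; and limma 3.58.1 on log2(FPKM + 0.1) or log2(FPKM + 1) with a mean FPKM of at least 1, or without that filter. 14 lists were written by hand, 8 of them cell type markers, and 4 came from the KEGG and GO terms of the table.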

Additional observations from a re-analysis of the deposited data

How the results depend on the processing

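Of the 10 members, 2 (Ccnb1 and Mcm2) had an adjusted p under 0.05 with DESeq2, and 0 had one under every other alternative. At an unadjusted p under 0.05, 1 member, Gadd45g, was higher without an expression filter and in limma on log2(FPKM + 0.1) or log2(FPKM + 1) with a mean FPKM of at least 1, where 1 member, Pcna, was lower, since 4 of the 10 members passed that filter. With 1 library left out, 0 to 1 members were higher. Pcna and Ccnb1 kept an unadjusted p under 0.05 under every alternative in which they were tested. Over the whole table, 2 genes had an adjusted p under 0.05, against 2104 with DESeq2, 684 with at least 10 counts in every library, 822 with counts divided by 4, 162 without a filter, 878 and 884 in limma with the filter and a pseudocount of 0.1 or 1, 0 in limma without the filter, and 0 to 653 with 1 library left out. Limma with the filter put 1413 and 1416 genes higher at an unadjusted p under 0.05, against 2275. Fitted as a replicate block, the replicate number gave 0 genes at an adjusted p under 0.05 and 0 members. The deviations of same-numbered libraries from their group means correlated with r between -0.13 and 0.189, and 2 of 6 libraries correlated best with their own number, so the numbers were not taken as pairs. Ccna2 turned to a log2 fold change of 0.0021 with at least 10 counts, 0.011 with counts divided by 4 and 0.037 with upper-quartile scaling. With 1 library left out, values ran from -0.22 to 0.26 for Ccna2, -1.16 to 0.022 for Ccnd1, -0.45 to 0.38 for Cdk1 and -0.64 to 0.15 for Mki67. The list medians then ran from -0.74 to -0.13 for replication, -0.48 to 0.16 for the CDK inhibitors and -0.25 to -0.067 for the KEGG term Cell cycle. The causes were not tested. Members with under 10 fragments in a library, such as Ccnb1 in HTG libraries 1 and 3, are limited by depth.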

Other observations

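The deposited annotation gives broader views of the same process. Of the 121 genes with the KEGG term Cell cycle, 118 were tested, and 22 were lower and 6 were higher in the HTG group at an unadjusted p under 0.05 (edgeR's quasi-likelihood test), 18.6% and 5.08% against 12.4% and 12.3% of all genes tested. A negative fitted value was found in 83 of the 118 (70.3%, against 48.4% of all genes tested). The median log2 fold change of the 118 was -0.18, and HFD library 3 held the highest CPM of 46 of them (39.0%, against 19.1% of all genes tested). Without that library, 14 of 119 were lower (11.8%, near the 10.2% of all genes in that fit), and the median was -0.07. In the same fit 8 were higher, as were 1999 of all 19234 genes. The 6 higher became 10 without HTG library 1 and 3 without HTG library 2, where 2092 and 1541 genes of the whole table were higher. The GO term cell cycle had 558 genes tested, with 89 lower (15.9%) and 53 higher (9.50%) and a median of -0.14. The GO term cell division had 349, with 55 lower (15.8%) and 32 higher (9.17%) and a median of -0.15. Over all genes tested these shares were 12.4% and 12.3%. The GO term DNA replication, with 112 genes tested, had 16 lower (14.3%) and 12 higher (10.7%), near those shares. Its median was -0.07, closer to the 0.03 of all genes tested than the median of -0.60 over the hand-written replication list. The lists share genes, and the smallest adjusted p in each was 0.0538 in edgeR.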
